A study of Homo sapiens with 20 samples.

Results

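The 596 regions described here are the stretches of the genome where both H3K4me3 libraries of NRAS Q61K cells had a peak and none of the 4 control libraries did, the 2 of GFP cells and the 2 of parental cells. They were chosen on the presence of those peaks, from 31428 regions on the autosomes and X, each made by joining peaks of the 10 libraries with gaps of at most 1000 bp. Their NRAS Q61K, GFP and parental values are therefore a description, with no test. The colony and resistant libraries played no part in the choice.

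All cells were WM164, a human melanoma line that carries a mutant BRAF kinase, grown in serum-containing medium. NRAS Q61K cells overexpressed NRAS with the Q61K change, an activated RAS protein. Resistant cells had been kept in 50 nM dabrafenib, a BRAF inhibitor, for more than 90 days, and colony cells had been kept in the same dose for 45 days. GFP cells overexpressed green fluorescent protein, and parental cells received DMSO, the solvent, in the 3 days before harvest. Each of the 5 groups had 2 libraries, and the labels do not say whether these came from separate cultures, so each spread may be technical. The labels give neither the promoter of the transgenes nor whether a line was grown from 1 clone.

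H3K4me3, trimethylation of lysine 4 on histone H3, is deposited by the SET1 and MLL complexes and is strongest around the starts of active or poised genes. Broad, tall peaks lie mainly on CpG-rich promoters, while short, low ones can also lie at enhancers. RAS proteins sit upstream of the RAF, MEK and ERK kinases, and NRAS is, after BRAF, among the genes most often activated by mutation in melanoma. Mutant NRAS is also a known route by which BRAF-mutant melanoma escapes BRAF inhibitors.

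The files hold peaks on the GRCh37 build and no gene names, and no annotation of that build was at hand, so regions are named by chromosome band and position. Where a gene is named below, its place on GRCh37 is background knowledge and not a measurement, and the genes were picked after the values were seen. The band of each such gene in the RefSeq annotation of GRCh38.p14 was the band of its region. Without an annotation, the melanocyte and other cell markers could not be placed, and the identity of the cells was not checked.

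Ranked by the lower of the 2 NRAS Q61K libraries, the region with the most bases under peaks lay at 16q23.1 (chromosome 16, 77822044 to 77824987), at VAT1L, a homologue of a synaptic vesicle membrane protein. Other regions, picked after the values were seen and not by this ranking, spanned the starts of 3 genes. They were COL13A1, a transmembrane collagen at 10q22.1 (chromosome 10, 71560953 to 71562207), RGS16, a regulator that speeds the switching off of G proteins at 1q25.3 (chromosome 1, 182572619 to 182574116), and TMEM229A, a transmembrane protein gene at 7q31.32 (chromosome 7, 123671775 to 123673759). NRAS Q61K peaks covered only 294 and 169 bp at RGS16 and 219 and 301 bp at TMEM229A. Resistant peaks there covered 1391 and 1472 bp and 1935 and 1855 bp. All 4 also carried a peak in both resistant lists and in neither colony list. Of the 596 regions, 29 did so. As 3 of the 4 were picked after the values were seen, their shared marks may follow from that choice. Other regions at genes differed. The region across SOX9 had no drug peak, and the one at KCNQ3 had peaks in both colony lists and in no resistant list. The promoters of VAT1L, COL13A1, RGS16 and TMEM229A are shown because H3K4me3 commonly follows CpG density. They are the 250 bases before each RefSeq start in GRCh38.p14, on the coding strand, 5′ to 3′, with CG dinucleotides in capitals. VAT1L is read from the plus strand of chr16:77788314-77788563, COL13A1 from the plus strand of chr10:69801656-69801905, RGS16 from the minus strand of chr1:182604390-182604639 and TMEM229A from the minus strand of chr7:124033068-124033317.
VAT1L: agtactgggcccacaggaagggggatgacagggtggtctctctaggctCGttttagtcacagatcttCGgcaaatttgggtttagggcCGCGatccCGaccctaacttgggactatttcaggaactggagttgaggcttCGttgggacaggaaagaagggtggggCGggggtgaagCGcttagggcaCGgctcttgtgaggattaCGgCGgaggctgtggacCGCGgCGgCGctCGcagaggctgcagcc
COL13A1: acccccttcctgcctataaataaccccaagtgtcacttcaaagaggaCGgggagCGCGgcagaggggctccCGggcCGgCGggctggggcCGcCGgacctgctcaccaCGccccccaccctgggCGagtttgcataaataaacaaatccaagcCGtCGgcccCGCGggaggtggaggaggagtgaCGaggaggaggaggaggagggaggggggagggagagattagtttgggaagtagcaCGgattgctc
RGS16: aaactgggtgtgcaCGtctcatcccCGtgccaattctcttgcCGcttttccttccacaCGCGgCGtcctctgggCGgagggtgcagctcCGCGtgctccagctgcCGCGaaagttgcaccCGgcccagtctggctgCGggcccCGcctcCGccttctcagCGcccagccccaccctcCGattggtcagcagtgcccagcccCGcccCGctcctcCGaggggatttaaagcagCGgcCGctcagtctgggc
TMEM229A: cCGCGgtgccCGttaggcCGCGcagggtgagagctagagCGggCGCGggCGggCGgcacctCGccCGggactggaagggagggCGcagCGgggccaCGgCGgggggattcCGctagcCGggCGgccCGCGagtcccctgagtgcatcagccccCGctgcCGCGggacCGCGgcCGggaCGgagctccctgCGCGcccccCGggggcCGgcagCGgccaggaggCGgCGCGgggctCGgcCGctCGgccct
CG reads the same on both strands. The windows hold 16 CG in VAT1L, 16 in COL13A1, 22 in RGS16 and 39 in TMEM229A, and the median over RefSeq promoters of this length was 11. Of those promoters, 59.0% hold fewer CG than VAT1L or COL13A1, 71.9% fewer than RGS16 and 97.3% fewer than TMEM229A. GC content was 60% in VAT1L, 64% in COL13A1, 68.4% in RGS16 and 82% in TMEM229A, against a median of 58.4%.

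Most of the 596 regions were short and weakly marked. Their merged length ran from 156 to 4496 bp with a median of 405.5 bp. The bases under peaks had a median of 264 bp in NRAS Q61K 1 and 227 bp in NRAS Q61K 2, and 278 regions had under 300 bp in both. Only 19 regions had 1000 bp or more in both libraries, and 3 had 2000 bp or more. Together the regions held 0.463% of the bases under peaks in NRAS Q61K 1 and 0.412% in NRAS Q61K 2.

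The authors' −log10 q of the strongest peak in a region, a measure of how far the summit stood above its local background, had a median of 5.45 in NRAS Q61K 1 and 4.92 in NRAS Q61K 2. It was 10 or more in both libraries at 20 regions, 5 or more in both at 191 and under 3 in both at 9. Solving the deposited fold and p-value for the reads behind them gave a median summit pileup of 19 reads over a background of 4.21 in NRAS Q61K 1, and 17 reads over 3.59 in NRAS Q61K 2. The lists hold no read counts, so this implied pileup is the only view of depth.

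Each list was called separately, and how weak a listed peak could be differed between libraries. The parental lists were shorter, with 29258 and 30065 peaks. The NRAS Q61K lists held 40648 and 37649, and the GFP lists 41806 and 45376. The median −log10 q of listed peaks was 14.7 and 14.3 in parental, 8.47 and 9.64 in NRAS Q61K and 7.74 and 7.36 in GFP lists. The part of these differences in the choice of regions was not tested. The lowest implied pileup of any listed peak was 11 in both NRAS Q61K libraries, 10 and 9 in GFP 1 and 2, and 13 and 11 in parental 1 and 2. The background, as its 1st percentile, was 3.87 and 3.40 reads in the NRAS Q61K libraries, 3.25 and 2.71 in GFP and 5.01 and 3.54 in parental libraries. The shortest listed peak was 153 and 151 bp in NRAS Q61K, 142 and 153 bp in GFP and 202 and 180 bp in parental lists. An implied pileup of 11 was thus at or above the lowest listed in the NRAS Q61K, GFP and parental 2 lists and below the lowest listed in parental 1. A missing control peak means that none was listed, and it was not tested whether H3K4me3 there was lower than in NRAS Q61K cells.

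The 2 NRAS Q61K libraries agreed in part. The summits lay within 100 bp of each other at 359 of the 596 regions (60.2%), with a median distance of 69 bp. Across the regions, covered length correlated with Pearson's r = 0.663 on a log scale and Spearman's rho = 0.464, and −log10 q with r = 0.434 and rho = 0.378. These describe regions that share 2 libraries and were chosen for having a peak in both. Of 2651 regions that NRAS Q61K 1 marked and the 4 control lists did not, 22.5% were marked in NRAS Q61K 2, and of 1516 that NRAS Q61K 2 marked, 39.3% were marked in NRAS Q61K 1. That share followed peak strength. It was 10.4% where −log10 q in NRAS Q61K 1 was under 3 and 74.7% where it was 10 or more, and from the side of NRAS Q61K 2 it was 16.7% and 97.3%.

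**Figure D1:**
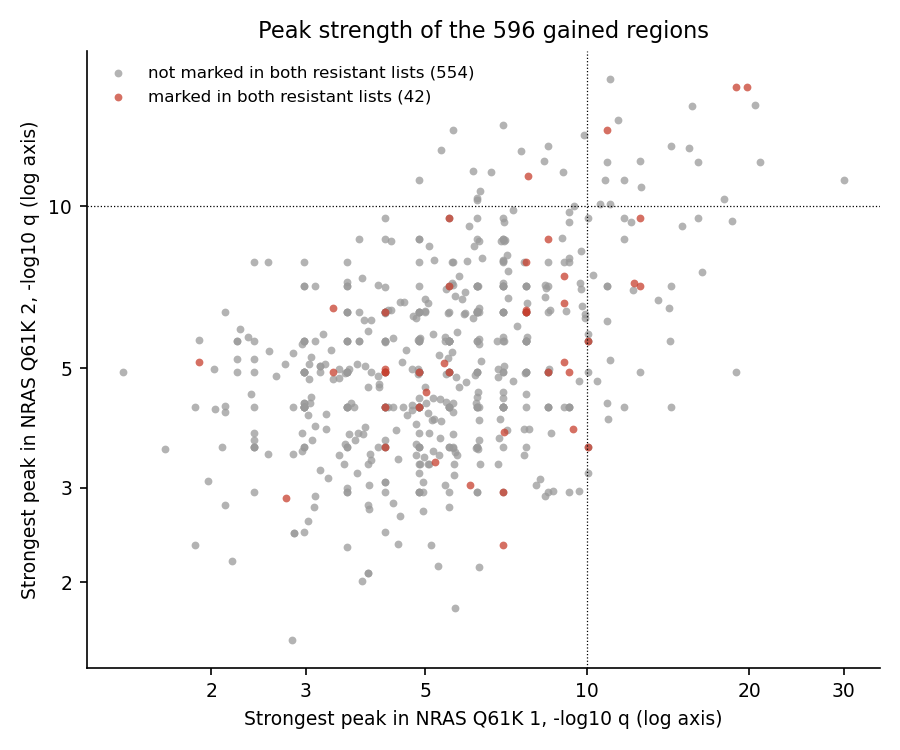
Strength of the 596 regions gained in NRAS Q61K cells, as −log10 q of the strongest peak in NRAS Q61K 1 (horizontal, log axis) and in NRAS Q61K 2 (vertical, log axis). Each point is a region, red where both resistant lists also had a peak (42 regions), and dotted lines mark 10, above which lie 20 regions in both libraries; the medians were 5.45 and 4.92.

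The same rule turned round, with GFP in place of NRAS Q61K, gave fewer regions. A peak in both GFP lists and in no NRAS Q61K or parental list was found at 359 regions, and a peak in both lists of both transgenes and in no parental list at 433. A −log10 q of 10 or more was found at 56 and 36 of the NRAS Q61K regions in NRAS Q61K 1 and 2, against 9 and 8 of the GFP regions in GFP 1 and 2. The median covered length of the GFP regions was 184 bp in GFP 1 and 216 bp in GFP 2. Of regions marked in GFP 1 but in no NRAS Q61K or parental list, 26.4% were marked in GFP 2, and in the other direction 9.70%. Both counts rest on asking for a peak in 2 libraries. With NRAS Q61K 1 alone standing for its group 2667 regions passed, and with NRAS Q61K 2 alone 1545. With GFP 2 alone the mirror count was 3750, and with GFP 1 alone 1401, so which transgene gave more regions depended on the libraries used.

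A region inside the gene of the transgene was among the 596. At 1p13.2 (chromosome 1, 115251183 to 115252424), inside NRAS, the gene for the overexpressed protein, NRAS Q61K 1 had 260 bp under peaks and NRAS Q61K 2 had 482 bp. The resistant and colony libraries had 0 bp there, and the GFP and parental libraries had none by the rule. The peaks had a −log10 q of 11.0 in NRAS Q61K 1 and of 17.3 and 10.2 in NRAS Q61K 2, with an implied pileup of 32 reads over a background of 6.35 in NRAS Q61K 1 and of 37 over 5.29 at the stronger one in NRAS Q61K 2. As background, the later coding exons of NRAS lie at these peaks. A further peak at another coding exon, found in both NRAS Q61K libraries and covering 340 and 344 bp (implied pileup 34 reads in each), fell in the neighbouring region, which is not among the 596 because the NRAS promoter there was marked in all 10 libraries. Reads from an introduced NRAS sequence and from the gene's own exons cannot be told apart in these files, so this region is no measure of H3K4me3 at the NRAS locus.

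**Figure D2:**
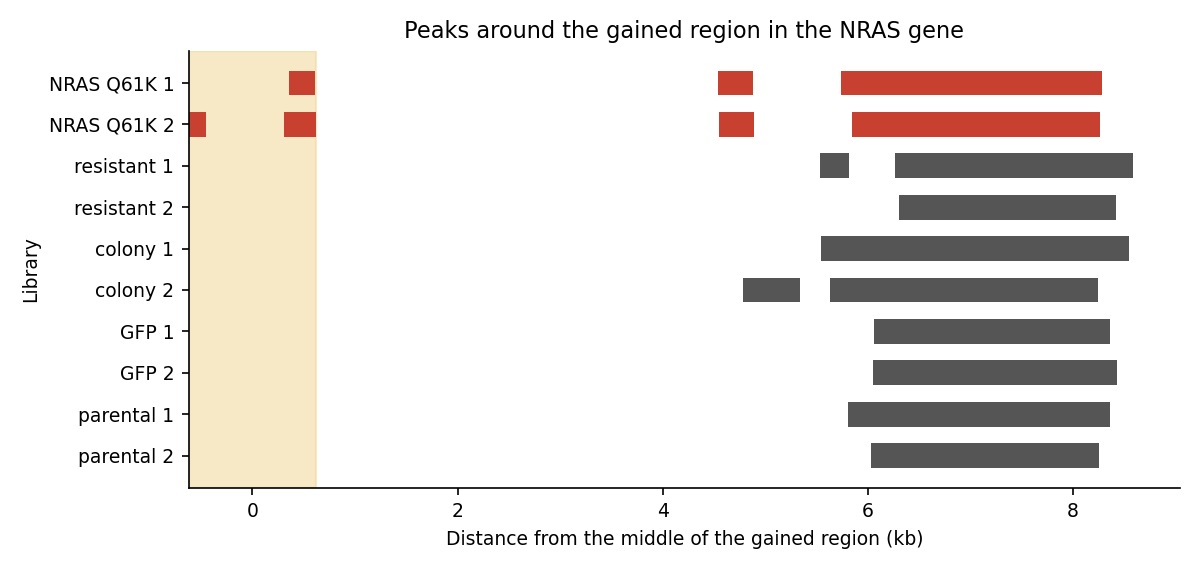
Peaks of each library around the region gained at NRAS (shaded), with the distance from its middle in kb on the horizontal axis and the 10 libraries down the page. The 2 NRAS Q61K libraries (red) have short peaks of 165 to 344 bp in and beside the region that the resistant, colony, GFP and parental libraries lack, except that a colony 2 peak of 564 bp overlaps the edge of the outer one, and all 10 libraries have a long peak at the promoter to the right.

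Of the other regions, ranked by the lower −log10 q of the 2 NRAS Q61K libraries, the first were 3p21.1 (chromosome 3, 54277151 to 54277814) and 16q23.1 at VAT1L. At 3p21.1, 664 and 430 bp lay under peaks in NRAS Q61K 1 and 2, 271 and 330 bp in resistant 1 and 2, and none in colony, GFP or parental libraries; −log10 q was 18.9 and 16.6 in the NRAS Q61K libraries. At VAT1L the NRAS Q61K libraries had 2455 and 2494 bp and the resistant libraries 1310 and 1471 bp, with none elsewhere, and its NRAS Q61K peaks had −log10 q of 19.8 and 16.6. Next came 12q24.31 (chromosome 12, 122101911 to 122102761; 751 and 645 bp in NRAS Q61K, 430 and 571 bp in colony), 13q22.2 (chromosome 13, 76444642 to 76445404; 520 and 743 bp) and 5q32 (chromosome 5, 147161680 to 147162228; 549 and 414 bp). The remaining 5 of the 10 strongest by this ranking lay at 1p13.3, 15q26.3, 6q23.3, 18q12.3 and 7q21.13, and among these only 7q21.13 had a peak in a drug list, 371 bp in colony 1.

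The 4 regions that followed VAT1L in covered length, by the lower of the 2 NRAS Q61K libraries, were marked in NRAS Q61K libraries alone. At 14q23.3 (chromosome 14, 65754421 to 65757228) NRAS Q61K 1 and 2 had 2750 and 2448 bp, at 9q31.1 (chromosome 9, 104144345 to 104147042) 2346 and 2038 bp, at 1p36.13 (chromosome 1, 19236183 to 19238790) 2437 and 1870 bp, and at 6q23.3 (chromosome 6, 138014327 to 138016453) 2045 and 1861 bp. The other 8 libraries had 0 bp in each of these 4 regions. By the mean of the NRAS Q61K libraries, 14q23.3 was the widest of all 596, with 2599 bp against 2474.5 bp at VAT1L. Their −log10 q ran from 12.6 to 20.9 in NRAS Q61K 1 and from 9.38 to 12.1 in NRAS Q61K 2.

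SOX9, a transcription factor of the neural crest lineage, is the gene of the neural crest list placed here from background knowledge. The other listed ERK output, inflammatory, epidermal and neural crest genes were not placed. SOX9 and the 1q21.3 region below were picked after their values were seen and stand for no list of genes. At 17q24.3 (chromosome 17, 70117221 to 70120667), across the SOX9 gene, NRAS Q61K 1 had 2280 bp and NRAS Q61K 2 had 1590 bp under peaks (1935 ± 488, SD, n = 2), and no other library had any. Its −log10 q was 11.7 and 11.2, with implied pileups of 26 and 24 reads. A further region upstream of SOX9 (chromosome 17, 70026224 to 70027161) had 335 and 192 bp in NRAS Q61K, 805 and 719 bp in resistant and 324 and 312 bp in colony libraries. That distal site was therefore marked in all 6 libraries of NRAS Q61K and drug-treated cells, and the gene itself only in those of NRAS Q61K cells. At 1q21.3 (chromosome 1, 153012501 to 153013681), within the epidermal differentiation complex, a cluster of genes of the cornified skin layer, NRAS Q61K 1 had 1021 bp and NRAS Q61K 2 had 691 bp, and no other library had a peak. Its −log10 q of 29.98 in NRAS Q61K 1 was the highest of all 596 regions, against 11.2 in NRAS Q61K 2.

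At the edge of the rule, the 3 regions that entered with the weakest stronger peak, ranked by the higher −log10 q of the 2 NRAS Q61K libraries, lay at 8p11.23, 9q33.3 and 1p34.3. Their −log10 q was 2.18 and 2.19, 1.86 and 2.35, and 2.12 and 2.78 in NRAS Q61K 1 and 2. A peak in exactly 1 control list kept out 655 regions that both NRAS Q61K libraries marked, through GFP 1 at 186, GFP 2 at 245, parental 1 at 174 and parental 2 at 50. The 3 of them with the weakest control peak lay at 11p15.5, 2q37.2 and 15q15.3 and were left out for a GFP 1 peak with −log10 q of 1.93, 1.97 and 2.00. At 11p15.5 the NRAS Q61K peaks, with −log10 q of 9.11 and 5.75, were above the medians of the regions that entered.

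Most of the 596 regions had no peak in drug-treated cells. No resistant or colony list marked 504 of them (84.6%). The drug lists were shorter, with 19401 and 19111 peaks in resistant and 21408 and 21573 in colony lists. The NRAS Q61K lists held 40648 and 37649. The lowest implied pileup was 14 and 15 reads in resistant and 14 and 13 in colony lists, against 11 in both NRAS Q61K lists. The part of these differences in the count of 504 was not tested. Both resistant lists marked 42 (7.05%) and both colony lists 20 (3.36%), and 9 were marked in all 4 drug lists. Resistant 1 marked 53 and resistant 2 marked 48, while colony 1 marked 34 and colony 2 marked 35. A peak in both resistant lists and in no colony list was found at 29 regions, and the reverse at 9; over all 31428 regions these counts were 829 and 1119. Left-out libraries moved the counts. The 42 in both resistant lists became 82 without parental 1 and 81 without NRAS Q61K 2. The 20 in both colony lists became 43 and 44 in the same settings, 35 without colony 1 and 34 without colony 2.

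Over all 31428 regions, which include those that the drug libraries themselves contributed, 46.8% were marked in no drug list, 42.3% in both resistant and 43.4% in both colony lists. The shares can also be set beside other sets chosen without the drug libraries. Of the 359 GFP regions, 3 (0.836%) were marked in both resistant lists and 2 (0.557%) in both colony lists. Of the 433 regions that both transgenes marked, 23 (5.31%) and 13 (3.00%) were. Among regions that no control list marked and exactly 1 NRAS Q61K list did (2975 regions), 1.55% were marked in both resistant and 0.941% in both colony lists. The share differed with length. Of the 596 regions ranked by mean covered length, 5 of the 199 shortest, 10 of the middle 198 and 27 of the 199 longest were marked in both resistant lists (2.51%, 5.05% and 13.6%). GFP regions of the same lengths were marked in both resistant lists in 1 of 186, 1 of 121 and 1 of 52 cases. The shortest listed peak was 255 and 256 bp in resistant and 282 and 284 bp in colony lists, longer than the 227 bp that these regions covered in the median in NRAS Q61K 2, and the part of this difference in the low shares was not tested.

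**Figure D3:**
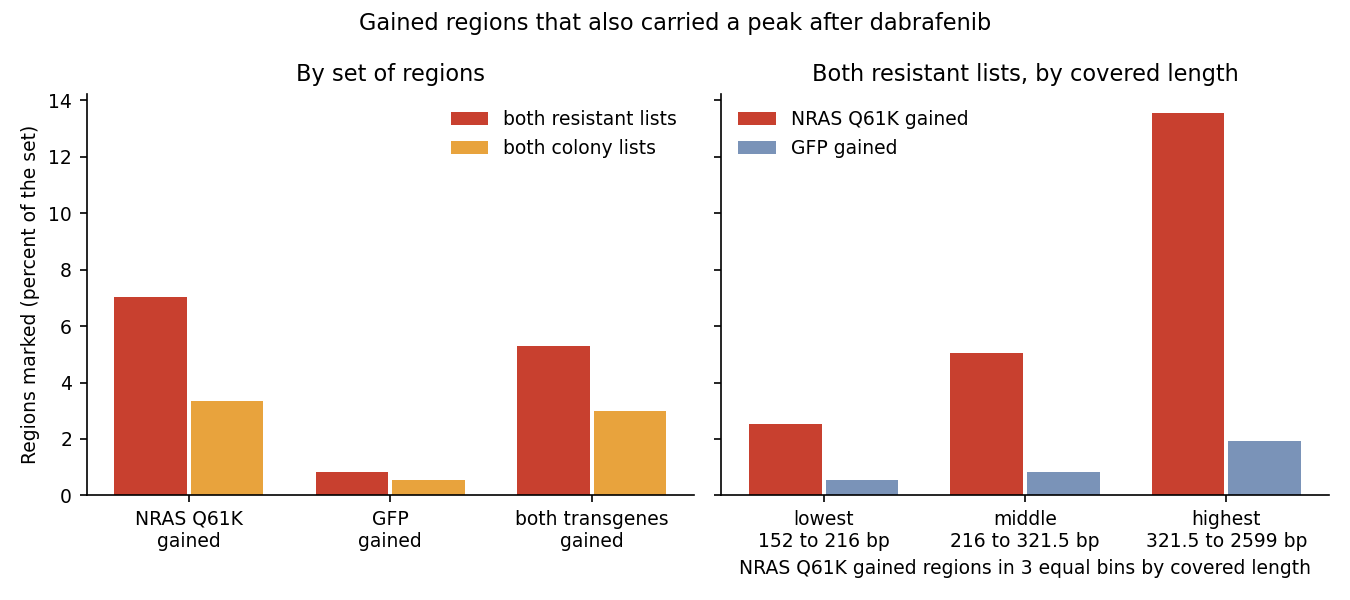
Percent of regions with a peak in both resistant or both colony lists, for regions gained with NRAS Q61K (596), with GFP (359) and with both transgenes (433), and, at right, percent in both resistant lists in 3 bins of covered length. NRAS Q61K regions were marked in both resistant lists in 7.05% of cases, against 0.836% of GFP regions and 5.31% of those gained with both transgenes. In the bin of the longest regions the share was 13.6%, against 1.92% of GFP regions, which is 1 of 52.

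Where drug-treated cells did mark a region, the bases under peaks could exceed those in NRAS Q61K cells. Of the 42 regions marked in both resistant lists, 28 had more bases under peaks in each resistant library than in each NRAS Q61K library. The median over the 42 was 983 and 839.5 bp in resistant 1 and 2, against 456 and 317 bp in NRAS Q61K 1 and 2. Of the 20 marked in both colony lists, 10 had more in each colony library than in each NRAS Q61K library. The median over the 20 was 716 and 821 bp in colony 1 and 2, against 519.5 and 340.5 bp in NRAS Q61K 1 and 2. Neither count was made over all regions. The shortest listed peak was 255 and 256 bp in resistant and 282 and 284 bp in colony lists, against 153 and 151 bp in NRAS Q61K lists. The part of this difference in the counts and medians was not tested.

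Of the regions with the widest peaks in drug-treated cells, 5 were marked in all 4 drug libraries. At 7q22.2 (chromosome 7, 103968533 to 103973028), across the start of LHFPL3, a gene of the tetraspan superfamily, NRAS Q61K libraries had 535 and 175 bp, resistant libraries 2158 and 2093 bp and colony libraries 3320 and 4092 bp. At 19q13.12 (chromosome 19, 37808149 to 37810101), in a cluster of zinc finger genes, NRAS Q61K libraries had 324 and 192 bp, resistant 1460 and 1291 bp and colony 1843 and 1590 bp. At 5q12.3 (chromosome 5, 63460606 to 63462854), at RNF180, a ubiquitin ligase, they had 943 and 224 bp, 1523 and 1298 bp in resistant and 1372 and 2234 bp in colony libraries. At 22q12.3 (chromosome 22, 33453378 to 33454961), at SYN3, a synapsin of nerve terminals, NRAS Q61K libraries had 346 and 201 bp, resistant 1344 and 762 bp and colony 1473 and 1556 bp. At 6q22.1 (chromosome 6, 114662927 to 114664937) all 6 libraries had at least 742 bp. At none of these 5 did resistant cells differ from colony cells past the threshold (limma adjusted p from 0.116 to 0.910). At 5q31.2 (chromosome 5, 139258330 to 139260798) NRAS Q61K libraries had 1069 and 1001 bp, resistant 1549 and 1800 bp and colony 282 and 0 bp, and this region was called wider in resistant cells (log2 difference 2.81, limma adjusted p = 0.00121).

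The contrast of resistant with colony cells is the 1 comparison whose libraries played no part in the choice of regions. Its spread was not free of that choice, as it was estimated over all groups. The rule left GFP and parental libraries without a peak in every chosen region, so there they differ by the centring alone. The limma p-values of the chosen regions may therefore be too low. Covered length was compared by limma on log2(bases under peaks + 200 bp), over the 23153 regions that 2 or more libraries marked, with Benjamini-Hochberg adjustment. Of the 596 regions, 33 (5.54%) were called wider in resistant cells, and over all tested regions the share was 11%. Called narrower were 10 (1.68%), where over all tested regions the share was 11.5%. Both shares are below those of all regions, and 504 of the 596 had no drug peak. The median log2 difference was 0.22 over the 596 and 0.17 over all regions; 0.22 is what the centring of libraries gives a region with no drug peak. At an unadjusted p under 0.05 the counts were 42 and 10.

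All 33 regions called wider were marked in both resistant libraries, and 29 of them were empty in both colony libraries. Of all 596 regions, 547 were marked in neither colony list, so empty colony libraries are no trait of the called regions. The log2 difference of the 33 ran from 1.09 to 3.61. TMEM229A at 7q31.32 had 219 and 301 bp in NRAS Q61K, 1935 and 1855 bp in resistant and 0 bp in both colony libraries (log2 difference 3.61 ± 0.21, SE; limma adjusted p = 1.42e-05). At 14q32.11 (chromosome 14, 90084071 to 90086043), at the start of FOXN3, a forkhead repressor, NRAS Q61K libraries had 183 and 396 bp, resistant 1794 and 1973 bp and colony 0 bp (3.60 ± 0.27, limma adjusted p = 4.61e-05). The next in size were 9q22.32 (chromosome 9, 99019249 to 99020955; 1644 and 1480 bp in resistant), 2q13 (chromosome 2, 111227961 to 111230507; 1469 and 1613 bp) and 22q13.1 (chromosome 22, 38197821 to 38199530; 1710 and 1336 bp), each with 0 bp in both colony libraries. These 5 regions were picked for the largest log2 difference, so the gap between their resistant and colony libraries follows from that choice. A fit of the resistant and colony libraries alone gave a limma adjusted p of 0.00231 at each of these 5. That fit also called regions with no drug peak. With drug peaks under a −log10 q of 10 left out, 11 of the 33 were still called wider, and 2q13 lost its call (log2 difference 0.21, limma adjusted p = 0.538). A log2 difference against 0 bp depends on the 200 bp added, so the covered bases are the measure to read.

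Several wider regions lay at known genes. VAT1L had 1310 and 1471 bp in resistant libraries and 0 bp in colony libraries (log2 difference 3.21, limma adjusted p = 1.95e-05). RGS16 had 294 and 169 bp in NRAS Q61K, 1391 and 1472 bp in resistant and 0 bp in colony libraries (3.25, limma adjusted p = 2.25e-05). COL13A1 had 786 and 716 bp in NRAS Q61K, 1255 and 720 bp in resistant and 0 bp in colony libraries (2.75, limma adjusted p = 0.000135). PTHLH at 12p11.22 (chromosome 12, 28122512 to 28123438), which encodes the parathyroid hormone-related protein, had 163 and 298 bp in NRAS Q61K, 839 and 927 bp in resistant and 0 bp in colony libraries (2.66, limma adjusted p = 0.00011). OLIG2 at 21q22.11 (chromosome 21, 34398136 to 34399012), a transcription factor of the oligodendrocyte lineage, had 518 and 230 bp in NRAS Q61K, 754 and 856 bp in resistant and 0 bp in colony libraries (2.55, limma adjusted p = 0.000213). The site upstream of SOX9 was also called wider in resistant cells (1.11, limma adjusted p = 0.00738).

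All 10 regions called narrower were marked in both colony libraries, and 9 were empty in both resistant libraries. Of all 596 regions, 537 were marked in neither resistant list, so empty resistant libraries are no trait of these 10. At 13q12.12 (chromosome 13, 24365191 to 24367406) NRAS Q61K libraries had 163 and 180 bp, resistant 0 bp and colony 669 and 1216 bp (log2 difference -2.25 ± 0.25, SE; limma adjusted p = 0.000423). At 8q24.22 (chromosome 8, 133491004 to 133492929), at the start of KCNQ3, a neuronal potassium channel gene, NRAS Q61K libraries had 1142 and 738 bp, resistant 0 bp and colony 1041 and 776 bp (-2.24, limma adjusted p = 0.000352). At 8p12 (chromosome 8, 32404794 to 32407178), in NRG1, which encodes a ligand of the ERBB3 and ERBB4 receptors, NRAS Q61K libraries had 1360 and 1065 bp, resistant 547 and 0 bp and colony 1733 and 1592 bp (-2.05 ± 0.51, limma adjusted p = 0.0229). In a fit of the resistant and colony libraries alone NRG1 was not called (limma adjusted p = 0.069). The others of the 5 most reduced kept their calls there (limma adjusted p from 0.00242 to 0.00563). The call at NRG1 was lost without either colony library (adjusted p of 0.0874 without colony 1 and 0.0691 without colony 2). The other 2 of the 5 most reduced, 19q13.42 and 15q11.2, had 765 and 945 bp and 575 and 866 bp in colony libraries and none in resistant libraries. The count narrower was 20 without colony 1 and 21 without colony 2. None of the 10 calls held when drug peaks under a −log10 q of 10 were left out, and 13 regions were then called wider.

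**Figure D4:**
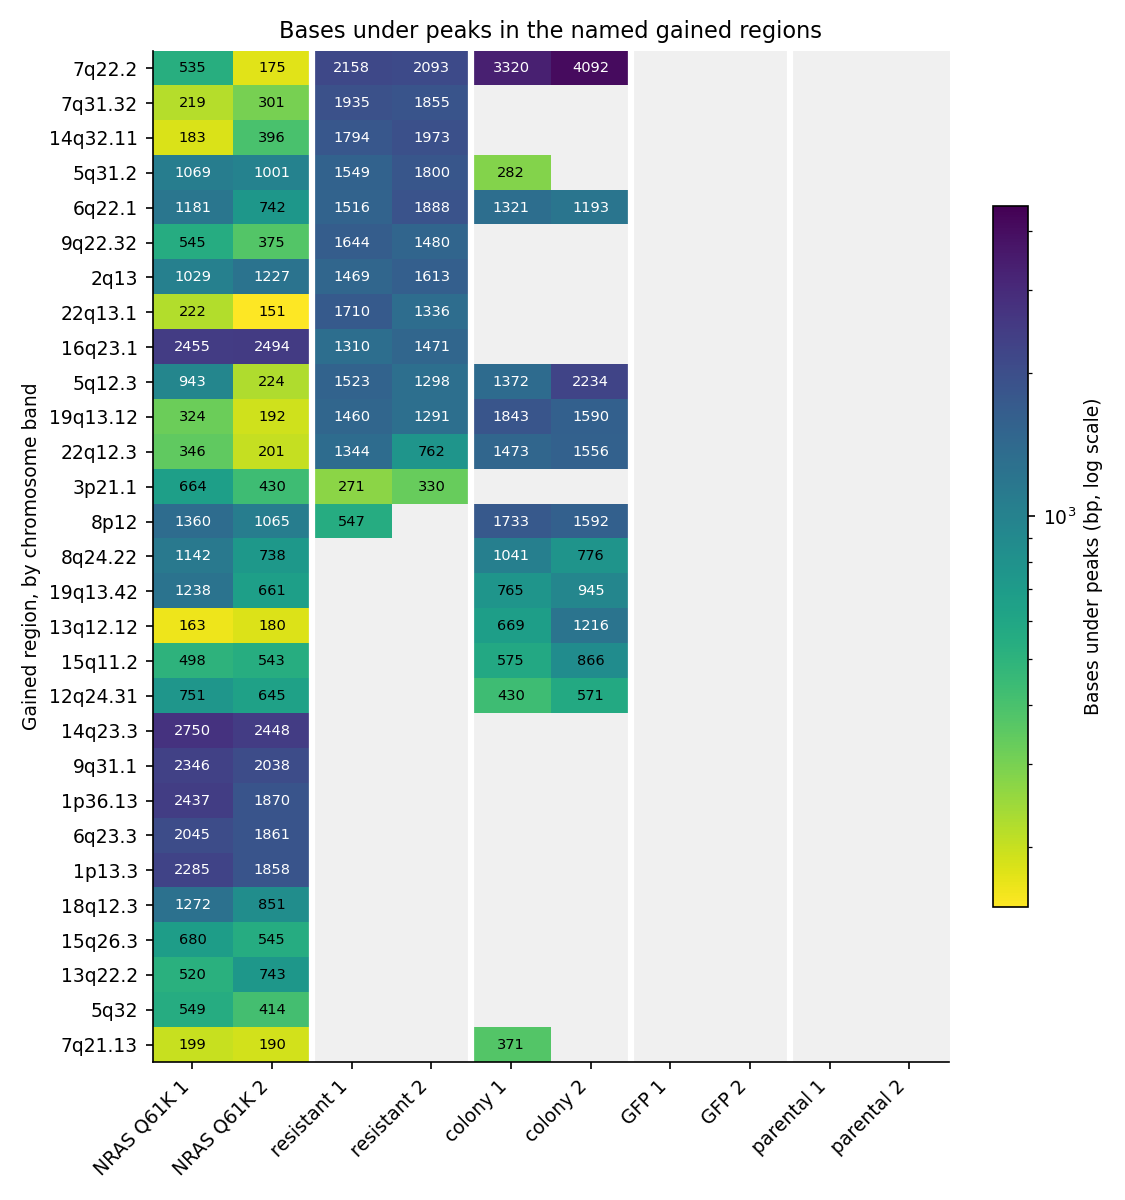
Bases under peaks in each library (columns) at the strongest, widest and most changed regions gained with NRAS Q61K (rows, by chromosome band), on a log colour scale, with grey where a library had no peak. GFP and parental columns are empty by the choice of regions; 9 of the 29 rows have no peak in any resistant or colony library, and 7q31.32 and 14q32.11 have 1794 to 1973 bp in resistant libraries and none in colony libraries.

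Many of the regions lay far from constantly marked chromatin. The median distance to the nearest region marked in all 10 lists was 110.9 kb for the 596, against 43.1 kb for the GFP regions, 55.5 kb for those of both transgenes and 48.6 kb over all regions. Within 5 kb of such a region lay 6.21% of the 596, against 16.4%, 8.78% and 10.4%. More than 1 Mb away lay 39 of them (6.54%), against 1.39%, 1.85% and 1.86%. The darkest Giemsa bands, which are gene-poor, held 14.8% of the 596 regions, against 6.13% of the GFP regions, 14.8% of those of both transgenes and 8.16% of all regions. The distance was thus larger than in both other sets, while the band share equalled that of both transgenes. No test was made of these positions, as neighbouring regions are not independent.

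**Figure D5:**
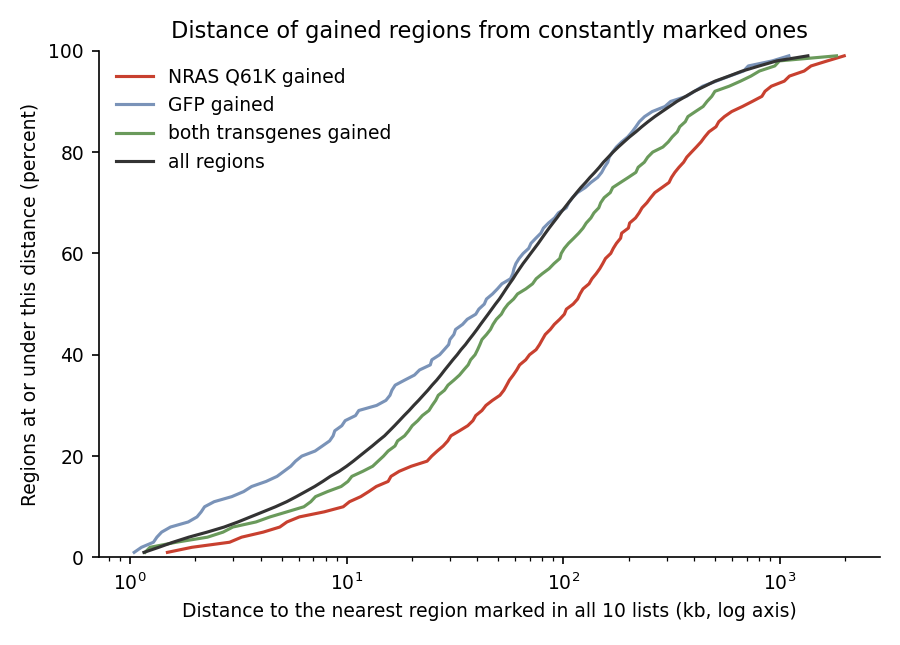
Cumulative percent of regions (vertical) by distance to the nearest region marked in all 10 lists (horizontal, kb, log axis) for regions gained with NRAS Q61K, with GFP and with both transgenes, and for all regions. The NRAS Q61K curve lies to the right, with a median of 110.9 kb against 43.1, 55.5 and 48.6 kb.

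The regions were spread over every chromosome and rarely adjoined. They made up 3.26% of all regions on chromosome 13, 2.98% on chromosome 8 and 2.93% on chromosome 4, and 1.06% on chromosome 19, the lowest share. The GFP regions made up 1.04%, 1.31%, 0.429% and 1.19% of the same chromosomes. The band with most was 7p21.3, with 6 of its 40 regions, and 4q13.1 held 5 of 25 and 8p12 held 5 of 44. At 4q13.1 and 7p21.3 no drug list had a peak in any of the 11 regions, and each had under 500 bp in both NRAS Q61K libraries. Of all 596 regions, 504 (84.6%) had no drug peak, so this is no trait of these bands. Only 28 of the 596 lay within 50 kb of another, and the median distance between neighbours was 1451 kb.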

How the data were processed

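H3K4me3 was mapped by chromatin immunoprecipitation and single-read sequencing in 10 WM164 libraries, 2 per group by sample title; the 10 inputs were not analysed here. The builds GRCh37 and hg19 and the tools MACS2 2.1.2, BWA, deepTools 2.5.4 and SAMtools appear in the submitters' processing notes, with no role or order. The authors deposited 1 peak list per library, called separately. Peak ends and summits are deposited positions in bases, and the score is the authors' display value. As deposited, fold is a ratio of summit to local background. The deposited −log10 p and −log10 q belong to the summit and served to describe, rank or filter peaks. The treatment of duplicate reads and inputs is not given in the sources used.

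Peaks on chromosomes 1 to 22 and X were merged within 1000 bp; 589 of 306884 peaks lay elsewhere. Fold and p-value, where −log10 p was at most 40, were solved for the summit pileup under a Poisson test with 1 added; at least 99.98% of pileups in each library were whole within 0.0005. Depth is otherwise unknown. Bands came from the hg19 table of circlize 0.4.16. Covered length was tested with limma 3.58.1 (R 4.3.3) on log2(bases + 200), centred on regions present in all libraries. The fit had 5 group means, a trend and Benjamini-Hochberg adjustment at 0.05. Its p-values set the difference against the spread within groups, estimated over all 5 groups, which may be technical. On simulated data of this contrast, run on 23153 regions, the test recovered 67% of log2 changes of 1.5 and 90% of changes of 3. With 2 against 2 libraries an exact permutation test cannot go below 0.333, and none was run. Python 3.11.15, pandas 2.3.3, scipy 1.17.1 and bedtools 2.31.1 did the rest.

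Regions and gene lists were chosen with earlier results of these data known. Described by a fixed rule are the 10 regions strongest and 5 widest by the lower of the 2 NRAS Q61K libraries, the 5 widest in both colony and in both resistant libraries, the 5 most widened and 5 most narrowed in resistant against colony cells, and 3 just inside and 3 just outside the rule; the NRAS, SOX9, VAT1L and other gene regions beyond these were picked after their values were seen. The gene lists could not be placed on GRCh37 as a whole, so no count over them is given. Alternatives were stricter peaks, lists of equal length, other merging, a minimum of 200 bp, other pseudocounts, no centring, no filter, no trend, a separate fit, the replicate number as a block, and leaving out each library. The GFP mirror count was added after seeing the data.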

Additional observations from a re-analysis of the deposited data

How the results depend on the processing

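The 596 regions depended on how peaks were filtered and joined. Keeping in every list only peaks whose −log10 q reached 10 gave 347 regions, with 20 of the 596 among them, and 63 GFP regions; with that limit on NRAS Q61K peaks alone 20 remained, 3 of them marked in both resistant and 2 in both colony lists. Lists of equal length gave 204 regions, with 24 of the 596 among them, and 49 GFP regions. Joining overlapping peaks only gave 1003 NRAS Q61K regions and 1043 GFP regions, so NRAS Q61K no longer gave more, and a minimum of 200 bp gave 32 NRAS Q61K regions in both colony lists and 176 GFP regions in all. Leaving out each library in turn gave 646 to 2667 NRAS Q61K regions, 415 to 3750 GFP regions, 46 to 82 NRAS Q61K regions in both resistant lists and 22 to 44 in both colony lists. A library left out weakens the rule by construction, as 1 peak then stands for a pair. In resistant against colony cells, leaving out each library gave 33 to 42 regions called wider and 10 to 21 narrower. A fit of these 4 libraries alone called 538 wider, because regions empty in all 4 libraries have no spread there and differ by the centring alone. With drug peaks of −log10 q of 10 or more the counts were 13 and 0, and at 13q12.12 and 15q11.2 the log2 difference was 0.21, since no colony peak was left. Of 120 values for single regions under alternatives, 110 kept their call and direction, 8 lost the call and 2 reversed. With the replicate number as a block 33 were called wider and 10 narrower, the same regions; the numbers did not pair the samples (correlation of replicate differences between colony and resistant libraries -0.02 over 12087 regions). The low implied pileups limit what short peaks can show.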
